A study of Mus musculus with 6 samples.

Results

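The expression of 10 genes that sense bile acids and xenobiotics, or act in the feedback on bile acid synthesis, was compared in the liver of Mdr2 knockout mice given lycorine or vehicle. The genes were fixed by name and were Nr1h4, Nr0b2, Rxra, Nr5a2, Nr1h3, Nr1i2, Nr1i3, Fgfr4, Klb and Osgin1. All 10 were found among the 58601 rows of the deposited table, and all 10 were among the 13854 rows that were tested, those with a mean of at least 1 TPM (a transcript level per length, scaled to a sum of 1000000 in each library). The groups were Mdr2 knockout mice given lycorine, an alkaloid of the Amaryllidaceae (3 liver libraries), and Mdr2 knockout mice given vehicle (3 liver libraries). Mice of both groups were 8 weeks old when the treatment of 2 weeks began. Every library carried the Mdr2 deletion, and no wild-type liver was analysed here. The labels write the genotype as Mdr2-/- in the titles, as Mdr2 knockout in the genotype field and, in the growth protocol, as Mdr2-HKO. The sources used here do not give sex, dose or the cells in which the gene was removed. Nothing in the labels ties each library to a separate mouse, so a p-value here sets the difference against a spread between libraries that may be technical.

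FXR, the product of Nr1h4, is a nuclear receptor that binds bile acids and acts on DNA mostly as a dimer with RXR alpha, the product of Rxra. In hepatocytes it induces SHP, the product of Nr0b2, a repressor that has no DNA-binding domain and works by docking on other receptors, among them LRH-1, the product of Nr5a2. A second arm of the feedback runs from the gut, where bile acids induce the hormone FGF15, which reaches hepatocytes and binds FGFR4 together with the coreceptor beta-klotho, the product of Klb. Both arms repress Cyp7a1, the rate-limiting enzyme of bile acid synthesis. The oxysterol receptor LXR alpha (Nr1h3) and the xenobiotic receptors PXR (Nr1i2) and CAR (Nr1i3) share RXR alpha as their partner.

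None of the 10 genes passed the test. In limma with Benjamini-Hochberg adjustment over all rows, 0 of 10 had an adjusted p under 0.05, against 0% of all 13854 rows, and 0 of 10 had an unadjusted p under 0.05, against 3.44% of all rows. Log2 fold changes, lycorine over vehicle, are of TPM + 1. They were above 0 in 5 genes and below 0 in 5, with a median of -0.03, while the median of all tested rows was 0.22. Only Nr1h4, Rxra and Nr1h3 lay at or above that median, by 0.32, 0.21 and 0.17. In Nr1h4 and Rxra every lycorine library was above every vehicle library, a separation seen upward in 9.6% of all rows. In Klb every lycorine library was below every vehicle library, seen downward in 1.01% of rows. The other 7 genes overlapped between groups.

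**Figure D1:**
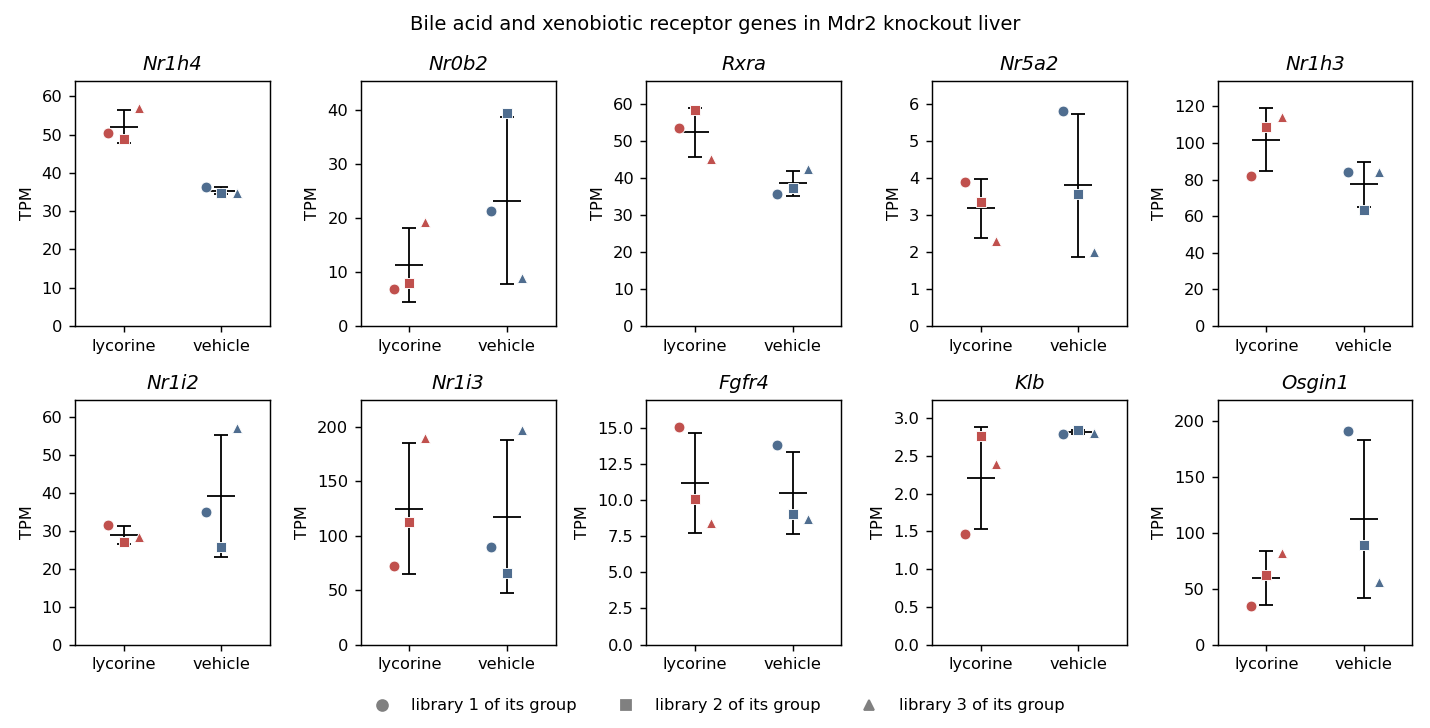
TPM of the 10 genes in each library, with lycorine libraries left (red) and vehicle libraries right (blue), symbols giving the library's number within its group, and black bars the mean ± SD of 3 libraries. Nr1h4 and Rxra are higher in all lycorine libraries, Klb is lower by as little as 0.02 TPM, and the other genes overlap.

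The share of TPM held by protein-coding nuclear genes was 69.5% to 78.1% in lycorine libraries and 51.5% to 71.5% in vehicle libraries, with the lowest value in vehicle 3. Mitochondrial transcripts held 9.48% to 13.2% in lycorine libraries and 12.9% to 20.1% in vehicle libraries, so only lycorine 3 and vehicle 1 overlapped. Albumin (Alb) was at 11824 to 19785 TPM in lycorine libraries and at 5039 to 18246 TPM in vehicle libraries, lowest in vehicle 3, which also correlated least with the other libraries across genes (median 0.766, against 0.864 to 0.942). The summed level of 8 hepatocyte markers was 30358 to 46717 TPM in lycorine libraries and 15624 to 44649 TPM in vehicle libraries, and again vehicle 3 was lowest. All 8 hepatocyte markers had a mean of at least 1 TPM. The part of these differences between libraries in the results was not tested. Abcb4, the gene that is named Mdr2 in the labels, was listed at 8.96, 8.32 and 32.2 TPM in lycorine libraries and at 43.5, 10.8 and 12.3 TPM in vehicle libraries, and a gene-level value does not show which part of its transcript remains. Since TPM depends on everything else in a library, the fold change of each of the 10 genes and the median of each list are also given after median-of-ratios scaling between libraries. Under that scaling the median over all rows was -0.02 on the log2 scale.

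The bile acid receptor itself was read first. Nr1h4 (ENSMUSG00000047638, chromosome 10 from 89454234 to 89533585 of GRCm38, minus strand) was at 50.5, 48.7 and 57.0 TPM in lycorine libraries and at 36.4, 34.8 and 34.8 TPM in vehicle libraries. The vehicle libraries lay within 1.6 TPM of each other, and the lowest lycorine library was 12.4 TPM above the highest of them. The mean was 52.1 ± 4.37 TPM with lycorine and 35.3 ± 0.910 TPM with vehicle (SD, n = 3 each). The log2 fold change was 0.55 (SE 0.25, 95% interval -0.05 to 1.14), with a limma adjusted p of 0.832. For this gene and all that follow, limma draws the spread toward that of other genes. The interval is thus not the spread of these Nr1h4 libraries alone, whose pooled SD within groups was 0.09 on the log2 scale. With no minimum level for a row, the 95% interval was 0.18 to 0.91 and the limma adjusted p was 0.860. An exact two-sided permutation test gave p = 0.1, the smallest that 3 against 3 allows. After median-of-ratios scaling the separation ended, with 39.9, 45.9 and 55.3 in lycorine libraries and 30.8, 47.1 and 41.9 in vehicle libraries, and the log2 fold change was 0.24 (95% interval -0.38 to 0.86). A bulk value cannot tell fewer cells of a type from less RNA per cell, here and for every gene that follows.

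A gene-level value adds up all transcripts of Nr1h4, which has more than 1 start site. GENCODE M21 places the gene's outermost start 26927 bases before the start in the RefSeq promoter table. The 250 bases before the RefSeq start are shown because this is the receptor at the head of the feedback, with the match to the nuclear receptor core motif AGGTCA, which lies on the opposite strand, in capitals (RefSeq, GRCm38.p6, minus strand, chr10:89506659-89506908).

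Nr1h4: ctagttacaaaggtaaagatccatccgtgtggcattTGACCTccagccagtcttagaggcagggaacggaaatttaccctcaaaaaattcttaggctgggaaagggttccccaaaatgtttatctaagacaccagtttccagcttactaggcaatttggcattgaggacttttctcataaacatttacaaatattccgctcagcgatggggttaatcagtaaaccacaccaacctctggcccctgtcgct

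Rxra (ENSMUSG00000015846, chromosome 2 from 27676440 to 27762957, plus strand), the common partner, was at 53.6, 58.4 and 45.3 TPM in lycorine libraries and at 35.8, 37.5 and 42.4 TPM in vehicle libraries. Lycorine 3 and vehicle 3 were only 2.89 TPM apart, so the separation was narrower than in Nr1h4. The log2 fold change was 0.43 (SE 0.27, 95% interval -0.19 to 1.05, limma adjusted p = 0.832), and the exact permutation test gave p = 0.1. The groups overlapped after median-of-ratios scaling, where it was 0.12. The receptor to partner ratio within a library, which no scaling between libraries can move, was 0.942, 0.834 and 1.26 for Nr1h4 over Rxra in lycorine libraries and 1.01, 0.927 and 0.820 in vehicle libraries. The transcripts of receptor and partner were thus at similar TPM, and the ratio overlapped between groups.

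The repressor SHP showed the widest spread of the feedback genes. Nr0b2 (ENSMUSG00000037583, chromosome 4 from 133553376 to 133556536, plus strand) was at 6.79, 7.90 and 19.3 TPM in lycorine libraries and at 21.4, 39.6 and 8.86 TPM in vehicle libraries. Lycorine 3 was high and vehicle 3 low for their groups, so the groups overlapped through the libraries numbered 3. The mean was 11.3 ± 6.91 TPM with lycorine and 23.3 ± 15.4 TPM with vehicle (SD, n = 3 each). The log2 fold change was -0.89 (SE 0.59, 95% interval -2.27 to 0.49, limma adjusted p = 0.832), and the exact permutation p was 0.2. It was -1.18 after median-of-ratios scaling, -1.43 without vehicle 3, -0.41 without vehicle 2 and -1.86 with both libraries numbered 3 left out, where limma's adjusted p was 1 and its unadjusted p was 0.013.

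Relative to the receptor that induces it, Nr0b2 was at 0.134, 0.162 and 0.338 of the Nr1h4 level in lycorine libraries and at 0.589, 1.14 and 0.254 of it in vehicle libraries. Vehicle 3 was the only vehicle library whose ratio lay below that of a lycorine library, which was lycorine 3. The mean difference of the log2 ratios was -1.51, and between -2.07 and -0.99 with any 1 library left out. It was -2.47 with both libraries numbered 3 left out. These ratios were chosen with the levels known and are a description with no test.

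**Figure D2:**
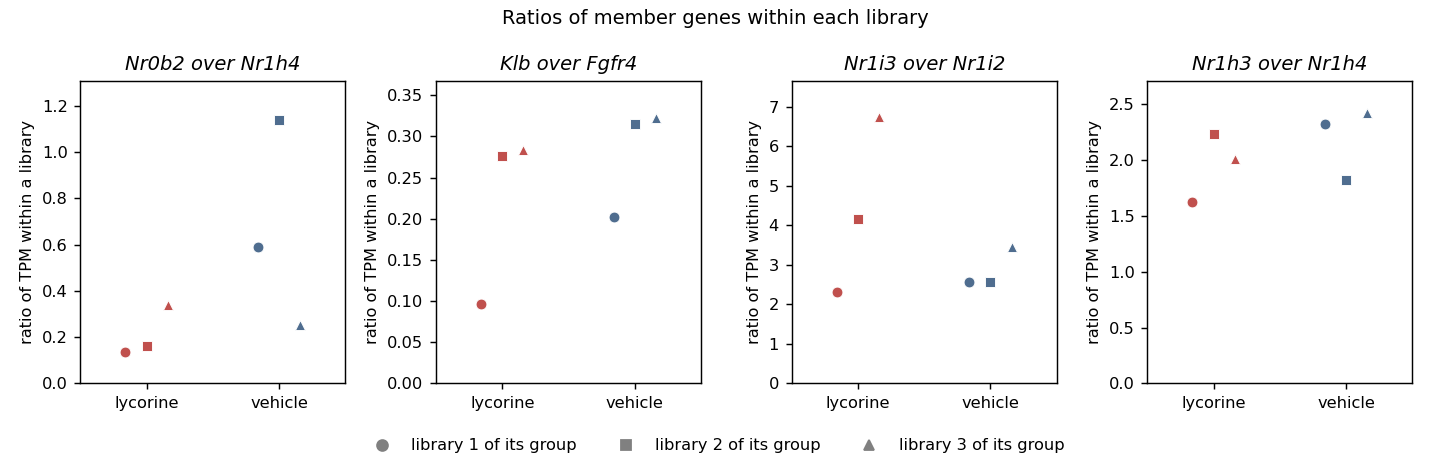
Ratio of TPM between pairs of genes within each library, with lycorine left (red) and vehicle right (blue) and symbols giving the library's number. Nr0b2 over Nr1h4 is below 0.35 in the lycorine libraries, and reaches 1.14 in vehicle libraries, with vehicle 3 at 0.254; all 4 ratios overlap between groups.

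The start of Nr0b2 is the same in RefSeq and in GENCODE M21. The 250 bases before it are shown because SHP and LRH-1 are tied in 1 loop, with both matches to TCAAGG, the core that LRH-1 binds, in capitals (RefSeq, GRCm38.p6, plus strand, chr4:133553126-133553375).

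Nr0b2: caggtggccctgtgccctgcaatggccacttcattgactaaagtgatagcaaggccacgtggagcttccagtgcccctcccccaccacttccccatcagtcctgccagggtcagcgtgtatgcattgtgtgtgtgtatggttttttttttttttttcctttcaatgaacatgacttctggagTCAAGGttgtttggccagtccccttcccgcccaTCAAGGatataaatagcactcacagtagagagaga

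Nr5a2 (ENSMUSG00000026398, chromosome 1 from 136842571 to 136960448, minus strand), which encodes LRH-1, an activator of Cyp7a1, Cyp8b1 and Nr0b2, was weakly expressed. It was at 3.88, 3.36 and 2.30 TPM in lycorine libraries and at 5.82, 3.57 and 2.00 TPM in vehicle libraries. In both groups library 1 was highest and library 3 lowest, and the groups overlapped. Lycorine over vehicle, the log2 fold change was -0.14 (SE 0.39, 95% interval -1.04 to 0.76, limma adjusted p = 0.936). It turned to 0.16 without vehicle 1 and to 0.02 without lycorine 3, and was -0.44 without vehicle 3 and -0.37 after median-of-ratios scaling. Its outermost RefSeq promoter, with 1 match to AGGTCA in capitals, is shown because Nr5a2 stands beside Nr0b2 in that loop (RefSeq, GRCm38.p6, minus strand, chr1:136960449-136960698).

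Nr5a2: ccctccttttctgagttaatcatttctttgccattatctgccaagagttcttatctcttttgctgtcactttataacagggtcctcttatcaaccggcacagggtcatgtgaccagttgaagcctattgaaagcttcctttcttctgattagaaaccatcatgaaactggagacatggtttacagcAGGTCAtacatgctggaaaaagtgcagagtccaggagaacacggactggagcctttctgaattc

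The short motifs in these promoters are common. The table holds 32851 windows of 300 bases, 250 before and 50 after a start, and 13 of them belong to the 10 genes. AGGTCA was found on either strand in 16.3% of all windows and in those of Nr1h4, Nr5a2 and Rxra. TCAAGG was found in 14.4% of all windows and, of the 10 genes, in Nr0b2 alone, at 68 and 35 bases before the start. The inverted pair of AGGTCA with 1 base between (IR-1), which FXR with RXR prefers, was found in 0.00913% of windows. The direct repeats with 1 base (DR-1) or 4 bases (DR-4) between were found in 0.0396% and 0.0152%. None of these 3 pairs was in a window of the 10 genes, which says only that these letters are not there. TCAAGG and AGGTCA can overlap by 3 letters, and a match is no evidence of binding. In all, 12 patterns were searched on both strands, of which 8 were added to the 4 first planned, and the windows of Rxra and Nr1i3 that hold a match are not printed. The 4 promoters printed are no neutral sample, since each was kept in view of its match, whatever other reason stands beside it. The motif marked in Osgin1 was itself sought after the letters had been read. Of 5 patterns not otherwise described, an antioxidant response element core was in 1 window of the 10 genes (Klb, 12.4% of all windows) and a loose form of AGGTCA in 6 (43.7% of all windows). The others, TCAAGG and AGGTCA sharing their middle letters and looser forms of IR-1, were in none.

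LXR alpha had the second highest mean of the 10 genes with lycorine. Nr1h3 (ENSMUSG00000002108, chromosome 2 from 91184061 to 91202834, minus strand), the oxysterol receptor that drives Srebf1 and Abcg5, was at 82.1, 108.6 and 114.3 TPM in lycorine libraries and at 84.3, 63.4 and 84.3 TPM in vehicle libraries. Lycorine 2 and lycorine 3 were above every vehicle library, and lycorine 1 was within the vehicle range. Its log2 fold change was 0.39 (SE 0.29, 95% interval -0.28 to 1.06, limma adjusted p = 0.832), and 0.08 with median-of-ratios scaling. Nr1h3 is also expressed by Kupffer cells, the resident macrophages of liver. All 8 markers of these cells had a lower mean with lycorine, and their summed level was 87.0 to 175.7 TPM in lycorine libraries and 154.2 to 286.4 TPM in vehicle libraries. The part of these cells in the level of Nr1h3 was not tested.

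The xenobiotic receptors differed in their spread. Nr1i2 (ENSMUSG00000022809, chromosome 16 from 38248323 to 38294824, minus strand), which encodes PXR, the inducer of Cyp3a11, was at 31.4, 27.0 and 28.3 TPM in lycorine libraries and at 35.1, 25.7 and 57.1 TPM in vehicle libraries. Vehicle 3 was high and the other 5 libraries lay between 25.7 and 35.1 TPM. On the log2 scale it differed by -0.36 (SE 0.35, 95% interval -1.17 to 0.45, limma adjusted p = 0.833), and -0.06 without vehicle 3. With median-of-ratios scaling it was -0.66, and every lycorine library was below every vehicle library. Under that scaling Nr1i2 was the only one of the 10 genes to separate, and upward separation held in 3.2% of all rows and downward in 3.65%. Nr1i2 also separated with quantile normalization, at -0.65, but overlapped with protein-coding nuclear genes alone, at -0.62. Its ratio to Rxra was 0.586, 0.461 and 0.624 in lycorine libraries and 0.978, 0.687 and 1.34 in vehicle libraries, without overlap. Of 9 such ratios to Rxra, those of Nr1i2 and Klb were below in every lycorine library and the other 7 overlapped. In the deposited TPM Rxra itself was higher in every lycorine library, which lowers any ratio to it. After median-of-ratios scaling Rxra overlapped between groups. The part of Rxra in these ratios was not tested. The share of all genes whose ratio to Rxra separates was not computed, so nothing particular to Nr1i2 and Klb can be read from these 2 ratios.

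Nr1i3 (ENSMUSG00000005677, chromosome 1 from 171213970 to 171220701, plus strand), which encodes CAR, the inducer of Cyp2b10, had the highest mean of the 10 genes in both groups. It was at 72.4, 112.4 and 190.4 TPM in lycorine libraries and at 89.7, 66.0 and 197.4 TPM in vehicle libraries. The libraries numbered 3 were the highest in both groups. Its log2 fold change was 0.13 (SE 0.51, 95% interval -1.06 to 1.33, limma adjusted p = 0.953), and it was -0.17 with median-of-ratios scaling, -0.22 without lycorine 3 and 0.58 without vehicle 3. The ratio of Nr1i3 to Nr1i2 was 2.30, 4.17 and 6.74 in lycorine libraries and 2.56, 2.57 and 3.46 in vehicle libraries, so lycorine 1 was lowest and lycorine 3 highest of all 6 libraries.

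The receptor pair for FGF15 was expressed at low levels. Fgfr4 (ENSMUSG00000005320, chromosome 13 from 55152640 to 55168759, plus strand), the main FGF receptor of hepatocytes in bile acid control, was at 15.1, 10.1 and 8.43 TPM in lycorine libraries and at 13.8, 9.01 and 8.68 TPM in vehicle libraries. The groups overlapped, with library 1 highest in each. A log2 fold change of 0.07 was fitted (SE 0.33, 95% interval -0.70 to 0.85, limma adjusted p = 0.960), and -0.21 with median-of-ratios scaling.

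Klb (ENSMUSG00000029195, chromosome 5 from 65348314 to 65384007, plus strand), the coreceptor, was at 1.46, 2.77 and 2.39 TPM in lycorine libraries and at 2.79, 2.84 and 2.80 TPM in vehicle libraries. The vehicle libraries lay within 0.05 TPM of each other, and lycorine 2 was 0.02 TPM below the lowest of them, a gap of 2 steps of the table's 2 decimals. For Klb the log2 fold change was -0.27 (SE 0.32, 95% interval -1.01 to 0.47, limma adjusted p = 0.851), and the exact permutation test gave p = 0.1. The separation ended after median-of-ratios scaling, where it was -0.49, and with quantile normalization. It held with protein-coding nuclear genes alone, where the log2 fold change was -0.51 (limma adjusted p = 0.999). There 225 of 11776 rows separated downward. Klb over Fgfr4 was 0.0969, 0.276 and 0.284 in lycorine libraries and 0.202, 0.315 and 0.323 in vehicle libraries, so the coreceptor's transcript was below its receptor's in all 6 libraries. The hormone's own gene Fgf15, known for expression in the ileum, was listed at 0 in all 6 libraries.

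Osgin1 (ENSMUSG00000074063, chromosome 8 from 119434124 to 119446256, plus strand) encodes a growth inhibitor induced by oxidative stress, reported as a target of FXR and of the oxidant sensor NRF2. It was at 34.6, 62.0 and 82.1 TPM in lycorine libraries and at 191.6, 89.1 and 55.9 TPM in vehicle libraries. Vehicle 1 was more than 2 times as high as any other library, and vehicle 3 lay within the lycorine range. The mean was 59.5 ± 23.9 TPM with lycorine and 112.2 ± 70.7 TPM with vehicle (SD, n = 3 each). The log2 fold change was -0.80 (SE 0.52, 95% interval -2.02 to 0.42, limma adjusted p = 0.832), and the exact permutation p was 0.4. It was -1.11 after median-of-ratios scaling, -0.33 without vehicle 1, -0.46 without lycorine 1 and -1.21 without vehicle 3. GENCODE M21 places the outermost start of Osgin1 3023 bases before the start in the RefSeq promoter table, so the stretch shown lies within the gene as annotated there. The 200 bases shown end before the annotated exon at the RefSeq start, with the match to TGACTCA, the site of AP-1 factors, in capitals (RefSeq, GRCm38.p6, plus strand, chr8:119436897-119437096). They were kept in view of that match, in the gene with the widest range of TPM among vehicle libraries of the 10 genes.

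Osgin1: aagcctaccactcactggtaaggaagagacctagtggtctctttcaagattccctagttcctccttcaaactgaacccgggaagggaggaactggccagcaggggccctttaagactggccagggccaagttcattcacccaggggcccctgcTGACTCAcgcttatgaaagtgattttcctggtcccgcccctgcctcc

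TGACTCA was found in 5.2% of all windows and, of the 10 genes, in those of Osgin1 and Nr1i3. The related site TGACGTCA was in 1.79% of windows and in no window of the 10 genes. Of 8 genes induced by NRF2, 7 were tested and 0 were called. A log2 fold change above 0 was seen in 6, of which 5 were above the median of all rows. Their median was 0.27, and it was -0.00 after median-of-ratios scaling, -0.08 without vehicle 3 and 0.63 without vehicle 1. Gclm, a subunit of the enzyme that starts glutathione synthesis, was at 126.3, 73.8 and 69.2 TPM in lycorine libraries and at 54.5, 68.5 and 26.2 TPM in vehicle libraries. The other 3 with the smallest p were Srxn1, Hmox1 and Nqo1, with log2 fold changes of 0.32, -0.40 and 0.38, and that of Nqo1 was -0.08 without vehicle 3.

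**Figure D3:**
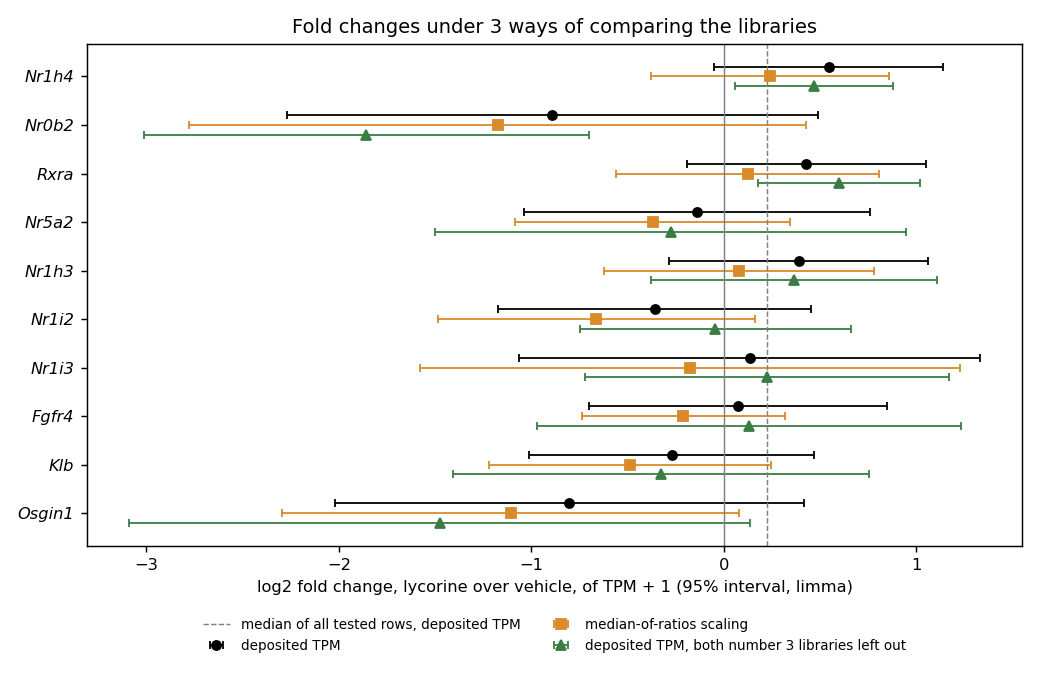
Log2 fold change of TPM + 1, lycorine over vehicle, of the 10 genes with 95% limma intervals, for the deposited TPM (black), after median-of-ratios scaling (orange) and without both libraries numbered 3 (green). For the deposited TPM (black) all intervals include 0, and Nr0b2 and Osgin1 lie farthest below 0 in all 3. Without the libraries numbered 3 the intervals of Nr1h4, Rxra and Nr0b2 leave out 0, with a limma adjusted p of 1. There 578 of all 13854 rows had an unadjusted limma p under 0.05. With median-of-ratios scaling of the same libraries (not drawn), the intervals of Nr1h4 (-0.66 to 1.01) and Rxra (-0.75 to 1.36) include 0. Those of Nr0b2 (-4.11 to -0.16) and Osgin1 (-3.23 to -0.31) do not. That setting was added after seeing the data. In it 509 of all 13854 rows had an unadjusted limma p under 0.05, and 0 rows were called after adjustment.

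In order of their mean level with lycorine, the 10 genes ran Nr1i3, Nr1h3, Osgin1, Rxra, Nr1h4, Nr1i2, Nr0b2, Fgfr4, Nr5a2 and Klb. With vehicle the order was the same except that Osgin1 came before Nr1h3, and Nr1i2 before Rxra and Nr1h4. Neighbours in the run from Nr1i3 to Nr1h4 overlapped between their libraries in the lycorine group, as did Nr0b2 with Fgfr4 and Nr5a2 with Klb. All lycorine values of Nr1i2 lay below those of Nr1h4 and above those of Nr0b2, and Fgfr4 lay above Nr5a2 likewise. Spread within groups was smallest for Nr1h4, with a pooled SD of 0.09 on the log2 scale, and largest for Nr0b2, at 0.90, and Osgin1, at 0.77. The median of all tested rows was 0.51.

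Genes downstream of FXR and SHP were read from lists. Of 12 genes induced by FXR, all were tested, 0 were called, and 9 had a log2 fold change above 0, of which 7 were above the median of all rows. Their median was 0.40, or 0.15 after median-of-ratios scaling, 0.12 without vehicle 3 and 0.54 without vehicle 1. The 4 with the smallest p were Mafg, Apoc2, Baat and Sdc1. Mafg, a partner of NRF2 that also represses bile acid synthesis genes, was at 3.36, 5.83 and 7.93 TPM in lycorine libraries and at 2.32, 0.36 and 3.70 TPM in vehicle libraries, a log2 fold change of 1.22. Baat, which joins bile acids to amino acids, was at 62.3, 53.0 and 64.8 TPM in lycorine libraries and at 43.8, 48.5 and 33.7 TPM in vehicle libraries, without overlap. Apoc2 and Sdc1 had log2 fold changes of 0.66 and 0.52.

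Slc51b, a subunit of the basolateral bile acid exporter that FXR induces strongly, was at 7.47, 5.75 and 3.47 TPM in lycorine libraries and at 14.7, 4.67 and 0.06 TPM in vehicle libraries. Vehicle 1 and vehicle 3 thus bracketed all lycorine libraries. Abcb11, the canalicular bile salt pump, was at 162.8, 176.8 and 153.6 TPM in lycorine libraries and at 314.5, 117.6 and 111.4 TPM in vehicle libraries. Vehicle 1 was also the highest library for Abcb11, Abcb4 and Osgin1. It was not the highest for Mafg, Apoc2, Baat or Sdc1, and Nr0b2 was highest in vehicle 2.

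Of 5 genes repressed through SHP or FGFR4, 0 were called and 4 had a log2 fold change above 0, all 4 above the median of all rows. Their median was 0.70, or 0.39 after median-of-ratios scaling. Slc10a1, the bile salt importer of hepatocytes, was at 101.0, 80.8 and 49.2 TPM in lycorine libraries and at 30.4, 47.2 and 25.1 TPM in vehicle libraries. Cyp7a1 was at 26.5, 19.1 and 10.6 TPM in lycorine libraries and at 2.53, 12.1 and 14.1 TPM in vehicle libraries. From lowest to highest Nr0b2 the libraries ran lycorine 1, lycorine 2, vehicle 3, lycorine 3, vehicle 1 and vehicle 2. In that order Cyp7a1 was at 26.5, 19.1, 14.1, 10.6, 2.53 and 12.1 TPM. It fell at each step except the last, where vehicle 2 was above both lycorine 3 and vehicle 1. Cyp8b1 and Cyp7b1, enzymes of the classical and the alternative route, had log2 fold changes of 0.70 and -0.59, with overlapping groups. The limma adjusted p was 0.832 for each of these 4. With the libraries in order of Nr0b2, Slc10a1 was at 101.0, 80.8, 25.1, 49.2, 30.4 and 47.2 TPM. Cyp8b1 was at 100.3, 103.0, 47.7, 81.7, 43.0 and 93.2 TPM, Cyp7b1 at 8.19, 14.0, 27.3, 15.2, 9.31 and 24.8 TPM. Cyp27a1 was at 115.7, 90.9, 137.0, 123.8, 77.4 and 72.5 TPM. Slc10a1 and Cyp8b1 rose from vehicle 3 to lycorine 3, and Cyp7b1 rose from lycorine 1 to vehicle 3. The order was laid out after the values were seen, and a relation of these genes to Nr0b2 was not tested.

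Of 23 genes induced by PXR or CAR, 20 were tested, 0 were called and 15 had a log2 fold change above 0, of which 14 were above the median of all rows. Their median was 0.67, and 0.37 with median-of-ratios scaling, and 4 had an unadjusted p under 0.05, against 3.44% of all rows. These were Cyp2c29, Cyp2c37, Aldh1a1 and Abcc3, of which only Cyp2c29 kept it after median-of-ratios scaling. Cyp2c29, a cytochrome P450 that CAR induces in mouse, was at 61.9, 30.0 and 44.7 TPM in lycorine libraries and at 1.24, 6.24 and 3.65 TPM in vehicle libraries, a log2 fold change of 3.40 (SE 0.49, limma adjusted p = 0.740). Cyp2c37 and Cyp2c29 belong to a family of close copies that can share reads, so their values are uncertain. Aldh1a1, an aldehyde dehydrogenase that makes retinoic acid, was at 365.6, 253.7 and 393.3 TPM in lycorine libraries and at 121.3, 205.6 and 188.2 TPM in vehicle libraries. Abcc3, a basolateral exporter of conjugates, had a log2 fold change of 1.04, of 0.69 without vehicle 3 and of 0.58 without both libraries numbered 3. Cyp2b10, the classical target of CAR in mouse, was too low to be tested, at 0.94, 0.05 and 0.10 TPM in lycorine libraries and listed at 0 in each vehicle library. Cyp3a11, the classical target of PXR, was at 1931, 1215 and 1232 TPM in lycorine libraries and at 1076, 1154 and 616.1 TPM in vehicle libraries.

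**Figure D4:**
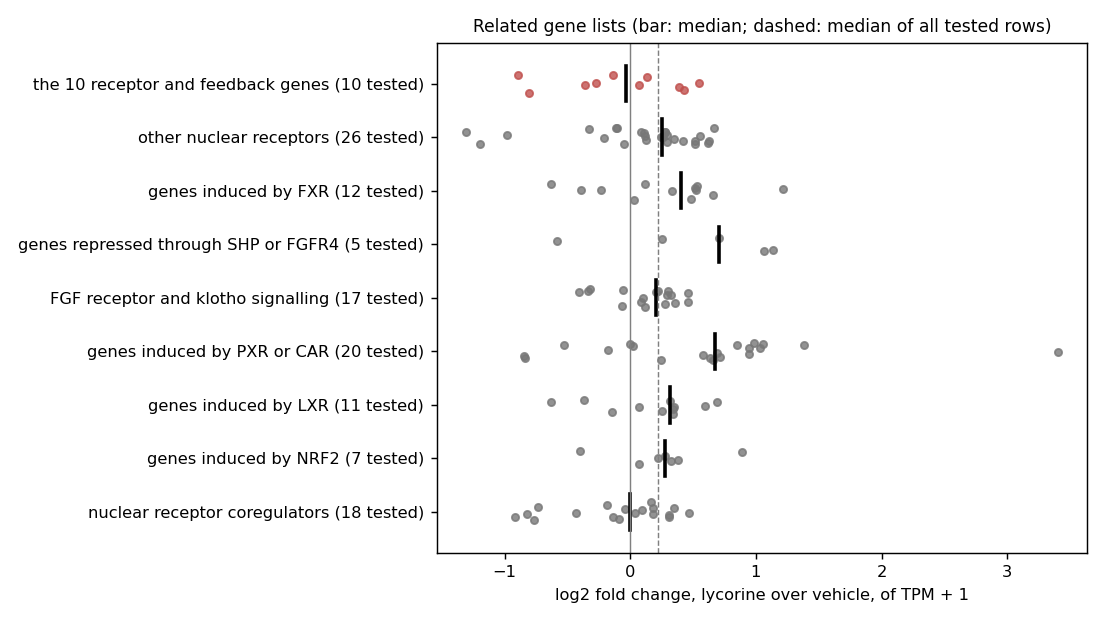
Log2 fold change of TPM + 1, lycorine over vehicle, of each tested gene in the receptor set (red) and in 8 related lists (grey), with black bars at list medians and a dashed line at 0.22, the median of all tested rows. The receptor set has its median at -0.03, the targets of PXR or CAR at 0.67; no gene shown passed the adjusted threshold.

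Of 42 other nuclear receptors, 26 were tested and 0 were called. A log2 fold change above 0 was seen in 18, of which 14 were above the median of all rows. Their median was 0.25, and it turned to -0.05 after median-of-ratios scaling. Nr2f2, a receptor of venous endothelium and stroma, was at 4.64, 5.39 and 4.83 TPM in lycorine libraries and at 3.01, 3.20 and 2.13 TPM in vehicle libraries. It separated upward, with a limma adjusted p of 0.832. Rarb and Esrra were also among those with the smallest p, with log2 fold changes of -1.30 and 0.52. Of the other RXR genes, Rxrb was at 12.6, 10.9 and 12.6 TPM in lycorine libraries and at 12.5, 7.46 and 14.2 TPM in vehicle libraries, so Rxra was above it in every library.

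Of 22 genes of FGF receptor and klotho signalling, 17 were tested and 0 were called. A log2 fold change above 0 was seen in 12, of which 7 were above the median of all rows. Their median was 0.20, and it turned to -0.09 after median-of-ratios scaling. Among those with the smallest p were Map2k1, a kinase of the ERK cascade, Dusp6, a phosphatase that ERK signalling induces, and Fgfr3, with log2 fold changes of 0.46, -0.32 and 0.30. Of 12 genes induced by LXR, 11 were tested, 0 were called and 8 were above 0, of which 7 were above the median of all rows. Their median was 0.31, or 0.04 after median-of-ratios scaling, and 0.02 without vehicle 1. Lpcat3, a phospholipid remodelling enzyme, was at 48.2, 35.5 and 29.1 TPM in lycorine libraries and at 31.2, 28.2 and 15.6 TPM in vehicle libraries, and Apoe, Fasn and Pltp had log2 fold changes of 0.35, 0.69 and -0.63. Of 20 coregulators, 18 were tested, 0 were called and 9 were above 0, of which 4 were above the median of all rows. Their median was -0.00, or -0.28 after median-of-ratios scaling. Their 4 with the smallest p were Hdac3, Ep300, Ncoa3 and Med1, with log2 fold changes of 0.47, -0.82, -0.92 and 0.35. Ncoa3, a coactivator, was at 2.05, 2.11 and 2.04 TPM in lycorine libraries and at 2.84, 1.08 and 23.4 TPM in vehicle libraries, so vehicle 3 decided its direction, and its log2 fold change was 0.12 without that library.

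Patterns across the 6 libraries were compared by the root mean square difference between deviations of log2(TPM + 1) from each gene's own mean, over 10977 other protein-coding genes. Nearest to Nr1h4 were Rsrc1, Ndrg2 and Arpp19, at 0.048, 0.057 and 0.072, where the median gene was at 0.44. Nearest to Nr0b2 were Angptl8, Nr4a1 and Golga4, at 0.31, 0.38 and 0.44, where the median gene was at 1.06. Angptl8, a liver hormone induced by feeding, was at 33.8, 47.6 and 81.1 TPM in lycorine libraries and at 135.8, 134.2 and 34.5 TPM in vehicle libraries, with the same 2 vehicle libraries high as in Nr0b2. Nr4a1, an immediate early nuclear receptor, was at 4.39, 2.05 and 5.72 TPM in lycorine libraries and at 10.2, 19.6 and 2.66 TPM in vehicle libraries. Nearest to Osgin1 were Ppp1r3c, Defb1 and again Angptl8, at 0.38, 0.41 and 0.41, where the median gene was at 0.88. These distances share the 6 libraries and are given with no test.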

How the data were processed

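RNA was measured in 6 mouse liver libraries and deposited as 1 table. The table is named for FPKM, yet every deposited column totals 1000000, so its values were read as TPM made by the authors. No aligner, quantifier or annotation is named in the sources at hand. GRCm38 and mm10 appear in the submitters' processing notes. Depth cannot be read from TPM and is unknown, and no counting error is given. Columns with genotype and number but no drug were taken as vehicle. GENCODE M21 named 52135 of 55416 Ensembl rows, and 1 list entry had no match.

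Rows averaging 1 TPM or more were tested as log2(TPM + 1), which understates changes of weakly expressed genes, with limma 3.58.1 in R 4.3.3 (variance trend, two-sided, Benjamini-Hochberg over 13854 rows, threshold 0.05, no replicate block). The procedure was tested on simulated data, and its criterion was replaced by a looser one after recovery of the largest changes had missed the first, so that test is weak support for the procedure. The 10 genes, lists, ratios and alternatives were chosen with earlier results of these data known. Named genes are the 10, the 4 with the smallest p in each list, the 3 nearest in pattern to Nr1h4, Nr0b2 and Osgin1, and Abcb4. Slc51b, Abcb11, Cyp27a1, Fgf15, Cyp2b10, Cyp3a11, Rxrb, Ppara and Fgfr2 were chosen after their values were seen. Of the genes named by this rule, 2 are not reported here.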

Additional observations from a re-analysis of the deposited data

How the results depend on the processing

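Of 168 values of the 10 genes under 17 alternatives, 0 were called, with a smallest limma adjusted p of 0.491, and 15 changed sign, in Fgfr4, Nr1i3 and Nr5a2. Ranges were 0.18 to 0.59 for Nr1h4, 0.12 to 0.60 for Rxra, 0.06 to 0.56 for Nr1h3, -2.13 to -0.41 for Nr0b2, -1.77 to -0.33 for Osgin1, -0.66 to -0.04 for Nr1i2 and -0.53 to -0.07 for Klb. Under median-of-ratios scaling, quantile normalization and restriction to protein-coding nuclear genes, Nr1i3 was at -0.17, -0.18 and -0.13 and Fgfr4 at -0.21, -0.10 and -0.18. Leaving out 1 library gave -0.22 to 0.58 for Nr1i3, -0.14 to 0.27 for Fgfr4 and -0.44 to 0.16 for Nr5a2. Median-of-ratios scaling without both libraries numbered 3, added after seeing the data, gave -0.068 for Nr1i3, -0.14 for Fgfr4, -0.091 for Apoe, -0.0252 for Fgfr3, -0.26 for Srxn1 and -0.29 for Nqo1. Nqo1 was also at -0.14 with array quality weights, whose estimation did not converge. Without both libraries numbered 3, Nqo1 was at -0.0651, Ncoa3 at 0.12 and Ep300 at 0.00351. Leaving out 1 library gave -0.905 to 0.048 for Hmox1, -1.66 to 0.12 for Ncoa3 and -0.081 to 0.86 for Nqo1. The cause of these reversals was not tested.

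Over all rows 0 were called. A pseudocount of 0.1 gave 1 call, array quality weights gave 1, and leaving out 1 library gave 0 to 2. Rows with an unadjusted p under 0.05 numbered 476, of which 386 were higher and 90 lower. After median-of-ratios scaling 127 were higher and 193 lower. Quantile normalization gave 137 higher and 158 lower, and protein-coding nuclear genes alone gave 143 higher and 104 lower. The numbers were 864 with no filter, 315 with a minimum mean of 5 TPM, where Nr5a2 and Klb were not tested, 1135 with array quality weights and 193 to 1238 with 1 library left out. Among the 8 lists 0 genes were called under any alternative. The labels do not say whether libraries of the same number form pairs. Deviations of same-numbered libraries correlated at 0.31, 0.05 and 0.29 across genes. These values cannot decide it, since deviations from a mean of 3 libraries are not independent of each other. A replicate block called 0 rows and gave 1033 with an unadjusted p under 0.05. Each lycorine library correlated best with the vehicle library of its number, for lycorine 2 at only 0.05. Vehicle 2 correlated best with lycorine 1, at 0.21. Nothing about pairing is concluded from these values.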

Other observations

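Vehicle 3 was high in Ppara, Rarb and Ep300, described here after their values were seen. Ppara, the fatty acid receptor, was at 5.90, 8.29 and 29.6 TPM in lycorine libraries and at 5.78, 5.46 and 68.7 TPM in vehicle libraries. Rarb, a retinoic acid receptor, was at 1.12, 5.27 and 5.38 TPM in lycorine libraries and at 4.47, 6.12 and 31.8 TPM in vehicle libraries. Ep300, a histone acetyltransferase, was at 1.06, 0.76 and 0.87 TPM in lycorine libraries and at 1.05, 0.76 and 9.43 TPM in vehicle libraries. In Ppara the libraries numbered 3 were highest in both groups, as in Nr1i3.

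The row named Fgfr2 was listed at 311.2, 950.2 and 1154 TPM in lycorine libraries and at 774.5, 295.8 and 2982 TPM in vehicle libraries, with vehicle 3 highest. GENCODE M21 gives this row a span of 2960900 bases, which can take in reads of other genes, so the value is uncertain.

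The summed level of 5 neutrophil markers was 1.39 to 2.82 TPM in lycorine libraries and 5.09 to 24.5 TPM in vehicle libraries, without overlap. Only 2 of the 5 had a mean of at least 1 TPM, so the sum rests on few genes at low levels. With lycorine 3 markers had a lower mean and 1 a higher mean, and Ly6g was listed at 0 in every library. Of 8 marker lists the neutrophil list was the only one whose sums did not overlap.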
